A study of Mus musculus with 2 samples.

Results

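The Slc25 genes encode the mitochondrial carriers, and they were taken here as all gene symbols in the deposited tables that consist of Slc25a and a number. This rule found 47 of 24346 gene symbols, without use of any measured value. The tables come from 2 libraries of mouse heart tissue that was kept in RNAlater and frozen. The labels describe both as heart after a high-fat diet and myocardial infarction, abbreviated HFD-MI, and both carry the age label day 14. The first group is HFD-MI heart treated with probucol, an antioxidant drug that lowers cholesterol. The other is untreated HFD-MI heart. The labels do not state the genotype or the strain of the animals, the dose, or how many animals gave each library. The deposited column names carry the marks HypoE and CM for both libraries, and since neither is explained there, they were not interpreted.

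Carriers of this family span the inner mitochondrial membrane, with a few in other membranes, and exchange or import the metabolites, nucleotides, cofactors and ions that enzymes of the matrix need. Each has a fold made of repeats of a pair of membrane helices, and those with an agreed substrate move a small set of related ones. Heart muscle depends on them to send ATP to the myofibrils, to bring phosphate, ADP and fatty acyl groups in, and to carry reducing equivalents across the membrane.

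Levels are the authors' deposited FPKM, which scale the fragments of a gene by transcript length in kilobases and by library size. The difference of each gene is log2((FPKM probucol + 0.5)/(FPKM untreated + 0.5)), so that a positive value means higher in the probucol library, and a gene was measured where its mean FPKM was at least 0.5. Each fold carries the added 0.5, which makes low genes look less different than they are. A call means a fold of at least 1.5, or 0.58 on the log2 scale. With 1 library per group there is no replicate and no test between treatments, so each statement describes these libraries and not the conditions. The steps of low FPKM values gave 6.69 fragments per FPKM and kilobase with probucol and 7.46 without. From these steps fragment numbers were estimated for the 30 members with a usable single RefSeq transcript, and exact binomial 95% intervals (Clopper-Pearson) of the FPKM ratio, without the added 0.5, were derived. These intervals cover counting error only.

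On the deposited scale, 30 of 39 measured carriers lay above 0 and 9 below, with log2 ratios from -0.64 to 0.69, but relative to cardiomyocyte markers 12 were higher and 27 lower. Over all 12882 measured genes 50.9% lay above 0. The members' median log2 ratio was 0.21, beside 0.01 for all measured genes. It was 0.07 when each library was rescaled to the same sum of FPKM and turned to -0.25 when ratios were centred on cardiomyocyte markers. Of the members, 4 were called higher (10.3%), where 5.52% of all measured genes were, and 1 was called lower (2.56%), where 12.0% of all genes were. None reached 2-fold in either direction, a limit passed by 1.07% of all genes upward and by 5.14% downward. The 4 calls upward are Slc25a20, Slc25a28, Slc25a42 and Slc25a3, and the call downward is Slc25a45. Under the rescaling 0 members were called higher and 4 lower, and the calls over all genes moved with it, since 16.6% of them were upward instead of 31.6%.

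**Figure D1:**
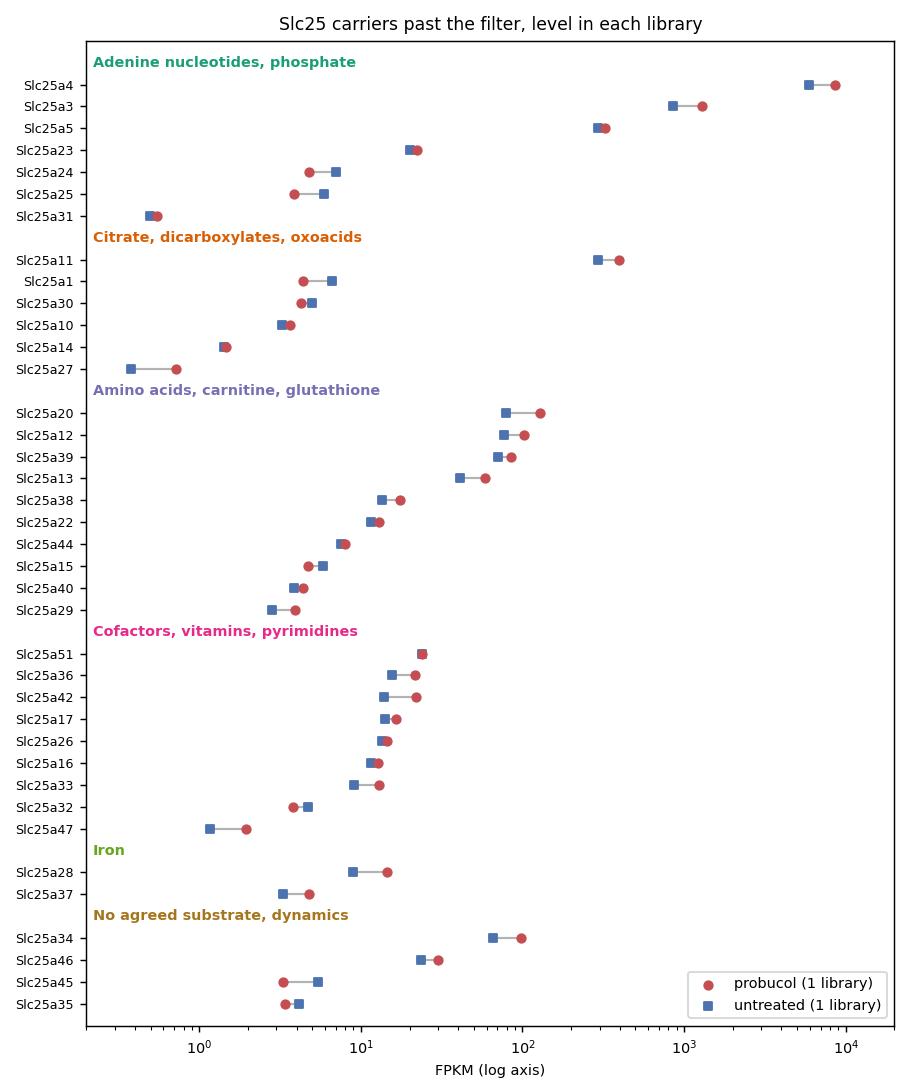
FPKM of 38 measured carriers with probucol (red circles) and without (blue squares) on a log axis, 1 library each, grouped by role. Slc25a4 stands far to the right at 8532 FPKM with probucol and 5943 FPKM without. The circles of 9 carriers lie to the left of their squares, among them Slc25a24, Slc25a25, Slc25a1 and Slc25a45.

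Cell type markers moved in these libraries too. Values below are on the deposited scale unless another scaling or centring is named. The 12 cardiomyocyte markers all lay above 0, with a median log2 ratio of 0.46 and a summed level of 74174 FPKM with probucol and 53468 FPKM without. All 12 macrophage markers were called lower, where 12.0% of all measured genes were. Their sum was 946 FPKM with probucol and 3154 FPKM without. The 10 fibroblast markers summed to 913 FPKM with probucol and 1584 FPKM without, and the 10 markers of proliferating cells to 14.3 FPKM with probucol and 49.1 FPKM without. Endothelial markers had a median of 0.01. Of the 39 measured carriers, 12 lay above the cardiomyocyte median and 27 below it. Centred on cardiomyocyte markers, the 4 upward calls had log2 ratios from 0.13 to 0.23. Group medians then were -0.32 for adenine nucleotide and phosphate carriers and -0.38 for citrate, dicarboxylate and oxoacid carriers. They were -0.15 for carriers of amino acids, carnitine and glutathione and -0.22 for those of cofactors, vitamins and pyrimidine nucleotides. The iron carriers had 0.11, and those without an agreed substrate or with a role in membrane dynamics -0.42. In such bulk tissue a smaller number of cells of a type and less RNA per cell cannot be told apart, and the part of cell composition in the values of the carriers was not tested.

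Carriers of adenine nucleotides and phosphate supply ATP synthase with its substrates and export its product. Slc25a4, the ADP/ATP carrier of heart and skeletal muscle (GRCm38/mm10, chromosome 8, 46207168 to 46211062), reached 8532 FPKM with probucol and 5943 FPKM without. It was the most abundant member in both libraries, ranked 8 among all genes with probucol and 11 without, and made up 75.5% of the summed FPKM of the family with probucol and 74.5% without. Its log2 ratio was 0.52, just short of a call, and the FPKM ratio of 1.44 had a counting interval of 1.42 to 1.45. Slc25a3, the phosphate carrier (chromosome 10, 91116574 to 91124046), came next with 1288 FPKM with probucol against 853 FPKM without. It was called higher at 1.51-fold, close to the limit, with an interval of 1.47 to 1.55 around its FPKM ratio. Slc25a5, the ADP/ATP carrier found in most tissues (chromosome X, 36795597 to 36798808), had 325 FPKM with probucol and 295 FPKM without, and its ratio of 1.10 had an interval of 1.04 to 1.17. GENCODE also lists a pseudogene of Slc25a5, and how reads shared with such copies were assigned is not known here. Slc25a31, the ADP/ATP carrier best known from testis, was near the detection limit at 0.550 FPKM with probucol and 0.493 FPKM without, from 7 fragments in each library. Of 8 germ cell markers, 6 were listed at 0 in both libraries. Of the others, Sycp3 had 7.52 FPKM with probucol and 5.57 FPKM without. Ddx4 had 0.233 FPKM with probucol and 0.209 FPKM without.

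The muscle form of the ADP/ATP carrier took a slightly larger part in the probucol library. Slc25a5 made up 3.67% of the summed FPKM of Slc25a4 and Slc25a5 with probucol and 4.73% without. The odds of a fragment from Slc25a5 instead of Slc25a4 were 0.767 times those in the untreated library, with a counting interval of 0.724 to 0.813. The coding sequences of both have 897 bases each and are 77.5% identical, and the longest run shared between them has 20 bases. The stretch around this run, from coding base 292 to 371 in the GENCODE transcripts, is shown with every base that differs in capitals, since it bears on how far reads of the pair can be told apart:
Slc25a5: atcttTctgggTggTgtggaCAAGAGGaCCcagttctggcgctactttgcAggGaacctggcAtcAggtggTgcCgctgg
Slc25a4: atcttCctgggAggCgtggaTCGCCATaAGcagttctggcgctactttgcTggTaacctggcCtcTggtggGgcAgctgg
In this window of 80 bases, 18 differ, and they lie on both sides of the shared run. Over 11 pairs of related carriers compared in this way the coding identity was between 62.0% and 77.5%, and no shared run exceeded 25 bases.

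A further branch exchanges ATP-Mg for phosphate, and its members Slc25a23, Slc25a24 and Slc25a25 are controlled by calcium. Here these members went in different directions. Slc25a23 had 22.4 FPKM with probucol and 20.2 FPKM without, a log2 ratio of 0.15. Slc25a24 had 4.80 FPKM with probucol against 7.04 FPKM without, with a ratio of 0.681 and an interval of 0.527 to 0.876 that lies below 1. Slc25a25 had 3.86 FPKM with probucol and 5.94 FPKM without (log2 ratio -0.56), which just missed the limit downward. Slc25a23 made up 72.1% of the summed FPKM of these carriers with probucol and 60.8% without. In percentage points, this was the widest shift among the paralogue groups. Slc25a41, the remaining ATP-Mg carrier, was listed at 0 in both libraries. Its gene lies 2056 bases from Slc25a23 on chromosome 17. Over the 7 measured members of the adenine nucleotide and phosphate group, the median log2 ratio was 0.14 with 1 call upward and 0 downward. Beside this, 5.52% of all measured genes were called higher and 12.0% lower.

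**Figure D2:**
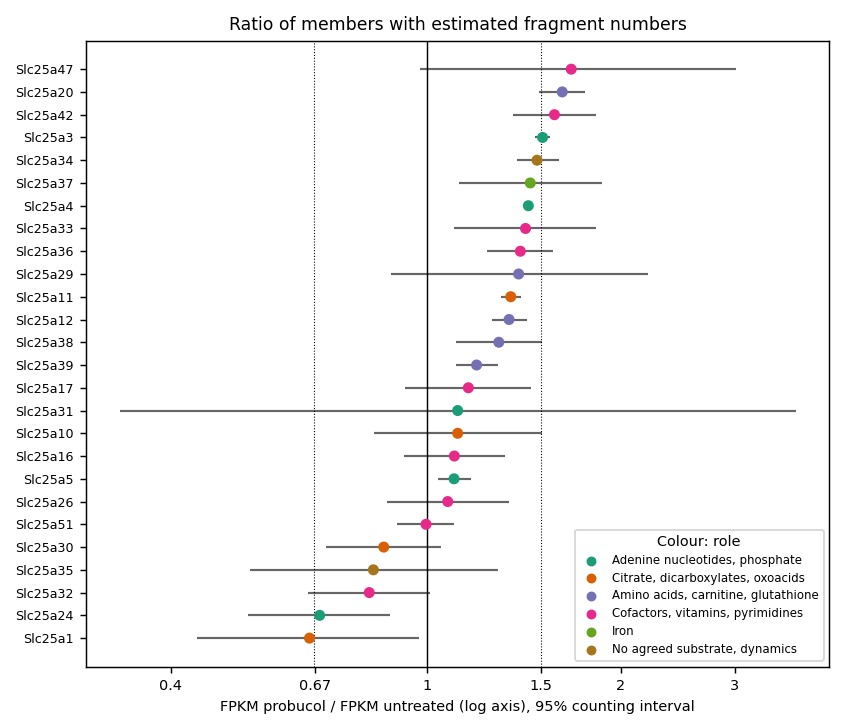
Ratio of FPKM in the probucol library to FPKM in the untreated library for the 26 measured carriers with estimated fragment numbers, on a log axis, with lines for exact 95% counting intervals and colours for roles. Dotted lines mark 1.5-fold. On the deposited scale the intervals of 13 carriers lie above 1, those of Slc25a24 and Slc25a1 lie below 1, and 11 include 1. The intervals cover counting error only, and another scaling of the libraries would shift them all against 1.

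Carriers of citrate, dicarboxylates and oxoacids connect the tricarboxylic acid cycle with the cytosol. Slc25a11, the oxoglutarate carrier of the malate-aspartate shuttle (chromosome 11, 70644019 to 70647531), was the third most abundant member at 393 FPKM with probucol and 291 FPKM without. Its FPKM ratio of 1.35 had an interval of 1.30 to 1.40. Slc25a1, the citrate carrier that feeds the synthesis of fatty acids and sterols in the cytosol (chromosome 16, 17925211 to 17928219), went the other way with 4.37 FPKM with probucol against 6.65 FPKM without. These values rest on 43 fragments with probucol and 73 without, and the interval of the ratio, 0.440 to 0.970, lies below 1. Slc25a10, the dicarboxylate carrier, had 3.62 FPKM with probucol and 3.25 FPKM without, with an interval of 0.826 to 1.51 that includes no difference. The carriers related to uncoupling proteins were low. Slc25a30 had 4.29 FPKM with probucol against 5.01 FPKM without, and Slc25a14 had 1.46 FPKM with probucol against 1.42 FPKM without. Slc25a27 had 0.723 FPKM with probucol and 0.378 FPKM without. None of the 6 measured members was called, where 5.52% of all measured genes were called higher and 12.0% lower. Their median log2 ratio was 0.08.

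Amino acid carriers include the aspartate/glutamate exchangers, which complete the malate-aspartate shuttle and are stimulated by calcium. Slc25a12, the exchanger typical of heart and brain (chromosome 2, 71274270 to 71367781), had 102 FPKM with probucol and 76.4 FPKM without, with a ratio between 1.26 and 1.43. Slc25a13, the exchanger best known from liver, had 58.6 FPKM with probucol and 41.3 FPKM without (log2 ratio 0.50). Both lay above 0, and Slc25a13 made up 36.4% of their sum with probucol and 35.1% without. The glutamate carrier Slc25a22 had 12.9 FPKM with probucol against 11.6 FPKM without, whereas its relative Slc25a18 had 0.129 FPKM with probucol against 0.231 FPKM without and was not measured. Slc25a44, a carrier of branched-chain amino acids, differed little at 7.98 FPKM with probucol and 7.55 FPKM without. Slc25a15, the ornithine carrier of the urea cycle, had 4.69 FPKM with probucol against 5.81 FPKM without, and Slc25a29, a carrier of basic amino acids, had 3.91 FPKM with probucol against 2.82 FPKM without. Slc25a15 was the only measured member of this group below 0. Over the 10 measured carriers of amino acids, carnitine and glutathione the median log2 ratio was 0.31, with 1 call upward and 0 downward. Of all measured genes, 5.52% were called higher and 12.0% lower.

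The carnitine/acylcarnitine carrier Slc25a20 had the highest log2 ratio of the family with the added 0.5. With 0.1 added instead, the low carrier Slc25a27 was higher, at 0.78 against 0.70 for Slc25a20, and Slc25a47 was level with Slc25a20. The Slc25a20 protein brings acylcarnitines into the matrix for beta-oxidation in exchange for carnitine (chromosome 9, 108662136 to 108684642). It had 128 FPKM with probucol and 79.1 FPKM without, a log2 ratio of 0.69 that exceeded those of 96.7% of all measured genes. The numbers of fragments were 1316 with probucol and 906 without, and the ratio of 1.62 had an interval of 1.49 to 1.76. Its partner enzymes were higher as well on this scale, with 139 FPKM with probucol and 88.3 FPKM without for Cpt2, the inner carnitine palmitoyltransferase, and 278 FPKM with probucol against 184 FPKM without for Cpt1b, the muscle form of the outer enzyme. Cpt1a, the form typical of liver, had 12.0 FPKM with probucol and 14.0 FPKM without.

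Carriers linked to heme and iron lay above 0 on the deposited scale. So did 30 of all 39 measured carriers, all 12 cardiomyocyte markers and the measured markers of red blood cells. Slc25a28, mitoferrin 2, which imports iron in tissues other than the erythroid line (chromosome 19, 43663801 to 43675006), had 14.5 FPKM with probucol and 8.98 FPKM without. It was called higher with a log2 ratio of 0.66, and no fragment number was estimated for it, since it has more than 1 RefSeq transcript. Slc25a37, mitoferrin 1, the iron importer of erythroid cells, had 4.80 FPKM with probucol and 3.32 FPKM without, with a ratio between 1.12 and 1.87. Slc25a38, which supplies glycine for heme synthesis, had 17.5 FPKM with probucol and 13.6 FPKM without, with a ratio between 1.11 and 1.51. The glutathione carrier Slc25a39 had 84.7 FPKM with probucol against 70.9 FPKM without and its relative Slc25a40 had 4.38 FPKM with probucol against 3.83 FPKM without. Centred on cardiomyocyte markers, the log2 ratios were 0.20 for Slc25a28, 0.01 for Slc25a37, -0.10 for Slc25a38, -0.21 for Slc25a39 and -0.29 for Slc25a40. Of 7 erythroid markers found, 5 were measured and 4 of these were called higher, where 5.52% of all measured genes were. The 7 summed to 3349 FPKM with probucol and 1723 FPKM without. Alas2, the erythroid enzyme that starts heme synthesis, had 98.5 FPKM with probucol and 38.0 FPKM without. The part of blood cells in the values of these carriers was not tested.

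Carriers of cofactors, vitamins and pyrimidine nucleotides were of moderate level. Slc25a42, which imports coenzyme A (chromosome 8, 70184340 to 70212281), was called higher with 22.1 FPKM with probucol and 14.0 FPKM without. Its estimated fragments were 437 with probucol and 309 without, and the ratio of 1.58 had an interval of 1.36 to 1.83. Slc25a51, the carrier of nicotinamide adenine dinucleotide (chromosome 4, 45395923 to 45408917), was nearly equal at 23.9 FPKM with probucol and 24.0 FPKM without. With 700 fragments in the treated and 784 in the untreated sample, its ratio lay between 0.898 and 1.10. The pyrimidine nucleotide carriers were higher by a like amount, with 21.7 FPKM with probucol against 15.5 FPKM without for Slc25a36 and 12.9 FPKM with probucol against 9.07 FPKM without for Slc25a33. Slc25a33 made up 37.3% of their sum with probucol and 36.9% without.

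Of the other cofactor carriers, Slc25a17, a peroxisomal carrier of coenzyme A and related cofactors, had 16.4 FPKM with probucol and 14.1 FPKM without. Slc25a26, which imports S-adenosylmethionine, had 14.5 FPKM with probucol against 13.5 FPKM without. Slc25a16, linked to the supply of coenzyme A, had 12.7 FPKM with probucol and 11.6 FPKM without. The intervals of these 3 ratios included 1. Slc25a32, a carrier of folate or flavin adenine dinucleotide, had 3.82 FPKM with probucol and 4.70 FPKM without, with a ratio between 0.653 and 1.01. Slc25a47, known mainly from liver, had 1.96 FPKM from 35 fragments with probucol and 1.17 FPKM from 23 fragments without. Its interval, 0.975 to 3.01, included no difference. The 8 liver markers summed to 6.10 FPKM with probucol and 3.12 FPKM without, all at low levels. Of the 4 measured ones, 3 lay above 0 and 1 below. Apoa2 had 2.51 FPKM with probucol and was listed at 0 without. Alb, the 1 below, had 1.22 FPKM with probucol and 1.90 FPKM without. The 10 measured carriers of this group had a median log2 ratio of 0.24, with 1 call upward and 0 downward. The shares over all measured genes were 5.52% upward and 12.0% downward.

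Among the carriers without an agreed substrate, or with a role in membrane dynamics, were an abundant member and the single call downward. Slc25a34 (chromosome 4, 141618819 to 141623891) was the seventh most abundant carrier at 97.9 FPKM with probucol and 66.1 FPKM without. Its ratio of 1.48 had an interval of 1.38 to 1.60, and at a log2 ratio of 0.56 it just missed a call. Its relative Slc25a35 had 3.41 FPKM with probucol and 4.14 FPKM without, so that it made up 3.37% of their sum with probucol and 5.89% without. The odds of a fragment from Slc25a34 instead of Slc25a35 were 1.78 times those in the untreated library, with a counting interval of 1.16 to 2.73. The value of Slc25a35 is uncertain, since 1151 bases of its exons overlap those of Rangrf on the opposite strand, which had 80.3 FPKM with probucol and 57.9 FPKM without. The library kit keeps strand, but the sources used here do not say whether the counting used it. Slc25a46, a protein of the outer membrane linked to mitochondrial dynamics, had 29.8 FPKM with probucol and 23.6 FPKM without. Slc25a45 (chromosome 19, 5877801 to 5885768) was called lower, with 3.31 FPKM with probucol and 5.44 FPKM without and a log2 ratio of -0.64. This call was lost with 1 FPKM added in place of 0.5. No fragment number or counting interval was estimated for Slc25a45, since it has more than 1 RefSeq transcript.

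Ratios on the deposited scale were also set against the level of each carrier. Of the 26 members with a mean of at least 5 FPKM, 22 lay above 0, where 56.7% of all genes at that level did, and their median log2 ratio was 0.30 against 0.05 for all such genes. Of the 13 measured members under 5 FPKM, 8 lay above 0, with a median of 0.08. At a limit of 10 FPKM, chosen after the values were seen, 21 of 22 members lay above 0, Slc25a51 being the exception, and 59.9% of all genes at that level did. With each library rescaled to the same sum of FPKM, Slc25a5 (-0.01), Slc25a16 (-0.01) and Slc25a26 (-0.04) lay below 0 as well. Centred on cardiomyocyte markers, 12 of all 39 measured members lay above 0 and 27 below. Spearman's rho between mean FPKM and log2 ratio was 0.43 over the 39 members and 0.20 over all measured genes, as a description of genes that share the same pair of libraries. Summed over the family, FPKM reached 11306 with probucol and 7975 without, or 1.51% of all FPKM with probucol and 1.18% without. Without Slc25a4 the sums were 2774 with probucol and 2033 without.

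**Figure D3:**
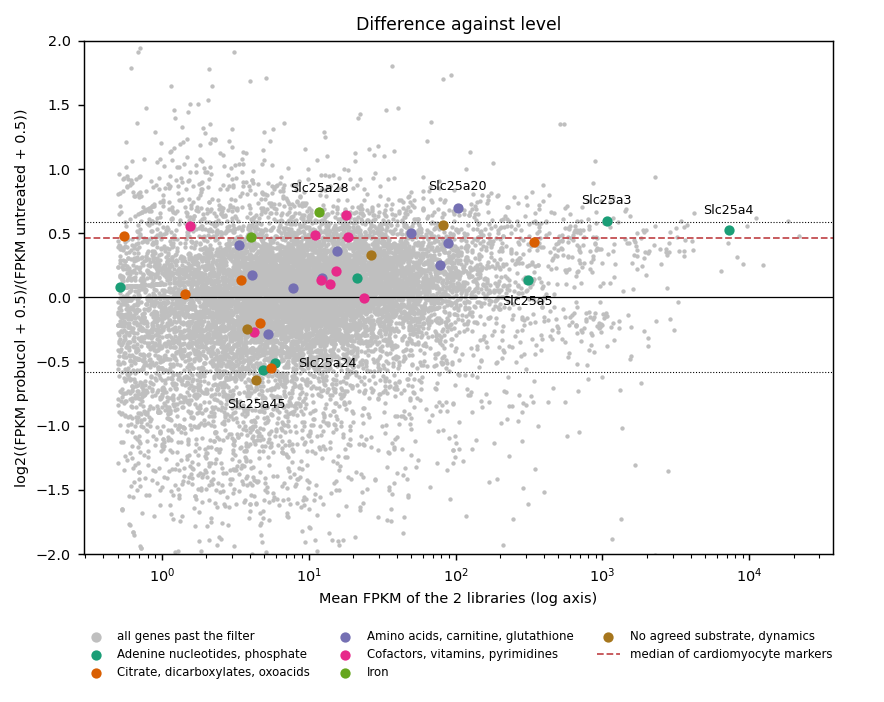
Log2 ratio of probucol over untreated, with 0.5 added to each FPKM, against the mean FPKM of both libraries on a log axis, with 38 carriers coloured by role, all other measured genes in grey, dotted lines at 1.5-fold and a dashed line at the cardiomyocyte marker median of 0.46. On this deposited scale, only Slc25a51 among carriers of at least 10 FPKM lies below 0, at -0.01. Beyond the plotted range of 2 in either direction lie 112 genes.

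The order of levels within the family was much the same in both libraries. Spearman's rho between the 47 levels was 0.983, and 9 of the 10 most abundant members were shared. The remaining 8 members were below the filter. Slc25a43 had 0.188 FPKM with probucol and 0.388 FPKM without, and Slc25a53 had 0.0501 FPKM with probucol against 0.135 FPKM without. The oxodicarboxylate carrier Slc25a21 and the ornithine carrier Slc25a2 were listed at 0 with probucol and at 0.137 FPKM and 0.118 FPKM without. Slc25a41, Slc25a48 and Slc25a54 were listed at 0 in both libraries. Slc25a18, described above, is the last of these 8.

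In 3 of 4 pairs of neighbouring family genes, 1 gene was below the filter and the other above it. These 4 pairs were less than 20000 bases apart on the same chromosome. Slc25a54, listed at 0, lies 6566 bases from Slc25a24 on chromosome 3, and Slc25a43, with under 0.5 FPKM, lies 18289 bases from Slc25a5 on chromosome X. Slc25a41 and Slc25a23, described above, are the third such pair. Slc25a29 and Slc25a47, 13956 bases apart on chromosome 12, were both measured, at 3.91 FPKM and 1.96 FPKM with probucol and at 2.82 FPKM and 1.17 FPKM without.

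**Figure D4:**
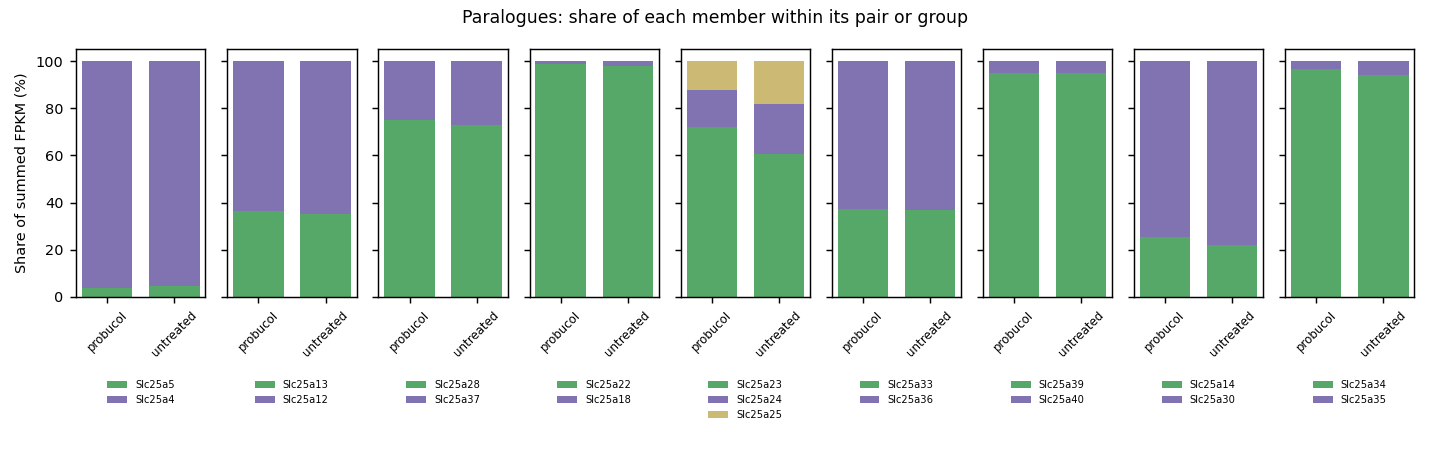
Share of each paralogue in the summed FPKM of its pair or group, in percent, in the probucol library (left bar) and the untreated library (right bar). Slc25a23 takes 72.1% of its group with probucol and 60.8% without, and the shares of the remaining groups differ by at most 3.31 percentage points.

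The upstream sequences of the 5 called carriers were searched for short motifs near the gene starts. They come from the 250 bases before a RefSeq start (GRCm38.p6), read 5′ to 3′ on the strand of the gene. This start is not the outermost for every gene, and 79 bases of the window of Slc25a3, 125 of Slc25a28 and 21 of Slc25a45 lie inside the RefSeq gene. Bases at or past the outermost start in RefSeq or GENCODE are left out here, which leaves 125 to 229 bases per gene. Capitals mark matches on either strand to any of 3 motifs. The GC box, a site of Sp-type factors, was searched as GGGCGG. The box bound by the factor NF-Y was searched as CCAAT. The core of ETS factors such as GABP, a known regulator of mitochondrial genes, was searched as CCGGAAG:
Slc25a20 (chr9:108661886-108662087, plus strand): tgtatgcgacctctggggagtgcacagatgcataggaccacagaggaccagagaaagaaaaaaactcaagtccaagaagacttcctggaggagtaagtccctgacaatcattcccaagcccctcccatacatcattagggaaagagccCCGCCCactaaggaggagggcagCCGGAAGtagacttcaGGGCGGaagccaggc
Slc25a28 (chr19:43675007-43675131, minus strand): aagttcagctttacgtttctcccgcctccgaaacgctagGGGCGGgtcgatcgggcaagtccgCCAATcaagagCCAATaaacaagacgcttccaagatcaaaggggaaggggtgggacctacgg
Slc25a42 (chr8:70212306-70212531, minus strand): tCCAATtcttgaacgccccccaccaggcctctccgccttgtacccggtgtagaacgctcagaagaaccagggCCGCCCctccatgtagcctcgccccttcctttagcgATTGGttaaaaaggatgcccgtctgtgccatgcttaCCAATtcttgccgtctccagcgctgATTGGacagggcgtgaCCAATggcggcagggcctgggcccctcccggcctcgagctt
Slc25a3 (chr10:91124060-91124217, minus strand): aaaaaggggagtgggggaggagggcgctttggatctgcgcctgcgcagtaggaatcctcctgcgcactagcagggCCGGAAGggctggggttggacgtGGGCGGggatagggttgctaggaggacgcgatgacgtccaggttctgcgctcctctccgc
Slc25a45 (chr19:5877572-5877800, plus strand): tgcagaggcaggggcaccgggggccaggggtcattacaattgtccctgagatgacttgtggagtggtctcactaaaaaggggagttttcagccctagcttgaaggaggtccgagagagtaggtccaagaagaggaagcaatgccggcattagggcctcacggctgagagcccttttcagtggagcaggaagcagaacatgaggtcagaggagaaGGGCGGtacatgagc
The cyclic AMP response element, as TGACGTCA, and the element of estrogen-related receptors, as AAGGTCA, were also searched on both strands and occur in none of these 5 sequences, and no matches of different motifs overlap. Slc25a20 and Slc25a3 each hold 1 ETS core. Slc25a28 holds 2 NF-Y boxes and Slc25a42 holds 5. The sequence of Slc25a45, the carrier called lower, holds a single GC box. Of the 39 measured members, 30 matched this source, with 38 whole windows of 250 bases. A GC box was found in 29 of these windows (76.3%) and in 56.3% of the windows of all measured genes. The NF-Y box was found in 19 (50.0%), beside 34.8%, and the ETS core in 5 (13.2%), beside 12.8%. The receptor element was found for 1 member, Slc25a34 (2.63% of windows), beside 2.95%, and the cyclic AMP response element for Slc25a25 and Slc25a36 (5.26%), beside 2.49%. Such matches describe letters and show no binding.

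Genes that work with the carriers were compared from lists of their own. Of the 14 measured enzymes of the shuttles, 5 were called higher and 0 lower, where 5.52% of all genes were called higher and 12.0% lower. Their median log2 ratio was 0.43, beside 0.46 for the cardiomyocyte markers, and it was -0.03 when centred on those markers. Mdh2, the mitochondrial malate dehydrogenase, had 1422 FPKM with probucol and 926 FPKM without. Gpd2 had 3.28 FPKM with probucol and 3.35 FPKM without, and with Cpt1a it was among the 2 enzymes below 0. Of 20 measured paths for metabolites and ions outside the family, 1 was called higher and 2 lower, with a median of 0.29 that turned to -0.18 with that centring. Vdac1, the main pore of the outer membrane, had 790.2 FPKM with probucol against 549 FPKM without, and was not called. Slc8b1, the mitochondrial sodium/calcium exchanger, had 5.46 FPKM with probucol and 8.59 FPKM without and was called lower. Sfxn5 was called lower (log2 ratio -0.67) and Sfxn4 higher (0.67), both at levels under 2 FPKM.

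Factors that insert carriers into the inner membrane differed less, with a median of 0.10 over 12 genes that turned to -0.36 with the same centring. Timm10, a chaperone of the intermembrane space that escorts carriers, was the 1 call upward, with 132 FPKM with probucol and 80.7 FPKM without. Tomm40, the import pore of the outer membrane, had 47.8 FPKM with probucol against 37.7 FPKM without. The 2 genes below 0 were Timm10b, with 28.4 FPKM with probucol and 31.9 FPKM without, and Agk, with 9.70 FPKM and 9.96 FPKM. Among 11 regulators of mitochondrial genes, 3 were called higher and 0 lower, beside the same 5.52% and 12.0% of all genes, and their median of 0.22 turned to -0.24 when centred on cardiomyocyte markers. Ppargc1a, a coactivator of mitochondrial genes, had 23.4 FPKM with probucol and 11.4 FPKM without, whereas Ppargc1b had 3.77 FPKM with probucol and 4.50 FPKM without. Ppara, the nuclear receptor for fatty acids, had 19.4 FPKM with probucol against 9.80 FPKM without, while Ppard, a related receptor, had 9.68 FPKM with probucol against 11.7 FPKM without.

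Carrier-fold proteins whose symbols lie outside the Slc25 series had log2 ratios from -0.88 to 0.60. Ucp2, an uncoupling protein that immune cells express strongly, had 61.5 FPKM with probucol and 114 FPKM without, a log2 ratio of -0.88 that was lower than that of every measured Slc25 member. Ucp3, the uncoupling protein of muscle, had 9.20 FPKM with probucol and 5.92 FPKM without, which was called higher (0.60). Mtch2, an insertase of the outer membrane, had 82.4 FPKM with probucol against 68.3 FPKM without, and its relative Mtch1 had 84.7 FPKM with probucol against 86.3 FPKM without. Ucp1, the uncoupling protein of brown fat, was listed at 0 in both libraries.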

How the data were processed

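Expression was measured by RNA sequencing in 2 heart libraries, 1 with probucol and 1 untreated, grouped by the treatment label. The authors deposited FPKM, 1 value per gene symbol. Build mm10 and the tools Cuffdiff 2.2.1, TopHat2 2.1.1 and Bowtie2 are listed in the submitters' processing notes. The annotation, the use of strand and any scaling of 1 library against the other were not given in these sources. Per the labels' protocols, a miRNeasy kit was used for RNA and a TruSeq stranded mRNA kit for the libraries.

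Ratios were computed on the whole table of 24346 symbols with pandas 2.3.3 and scipy 1.17.1, with a pseudocount of 0.5 FPKM, a filter of a mean of at least 0.5 FPKM (12882 genes) and a limit of 1.5-fold. The procedure was tested on simulated libraries. Fragments were estimated as FPKM times the transcript length less 210 bases, divided by the step of 1 fragment. The length is that of GENCODE M21 exons with the ends of RefSeq. Of 922 low genes in the probucol library 83.3%, and of 898 in the untreated library 81.8%, came within 0.1 of a whole number. The numbers give depth, but they are estimates, and no count test was run.

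Members printed with values were those past 1.5-fold, the 10 most abundant, the paralogues and all with a mean of at least 5 FPKM, and of other lists mainly the 2 highest and the 2 lowest ratios. For 1 measured member the values are not reported here, and it stays in the counts and medians. Further members and list genes were named after their values were seen. The members and lists were chosen with earlier results of these data known. Alternatives were other pseudocounts, filters and scalings.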

Additional observations from a re-analysis of the deposited data

How the results depend on the processing

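The members' median log2 ratio of 0.21 and the counts of 4 calls upward and 1 downward depended mainly on scaling. Rescaling each library to the same sum of FPKM gave a median of 0.07, 0 calls upward and 4 downward, and moved the median of all genes to -0.13. Centring on cardiomyocyte markers turned the median to -0.25, with 0 calls upward and 8 downward. With a pseudocount of 0.1, 6 members were called upward, Slc25a27 and Slc25a47 in addition, and 3 downward. The count downward was 0 with a pseudocount of 1 and 0 among genes of at least 5 FPKM, a filter that leaves Slc25a45 out. Trimmed mean scaling, centring on the median of all genes, no filter and a filter of 1 FPKM left 4 calls upward and 1 downward. Low members rest on few fragments, 7 in each library for Slc25a31. No paired analysis was possible because each group has 1 library.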
